A study of Mus musculus with 4 samples.

Results

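The spots described here are small areas of mouse brain sections that ranked highest for Ndnf, Reln, Cxcl14, Dio2 and Mfge8. Each section was read on an array of barcoded spots, and a spot gathers RNA from several cells, or parts of cells, that lie side by side. Spots with at least 500 unique molecular identifiers (UMIs, counted RNA molecules) and 250 genes were kept, which left 13452 of 13470. A score was the mean over the listed genes of the natural logarithm of 1 plus the UMIs of the gene per 10000 UMIs of the spot. In each section the 90 spots with the highest score for the meningeal genes Col1a1, Col1a2, Col3a1, Slc22a6, Fmod and Myoc were set aside. Of the rest, the 120 with the highest score for the 5 listed genes were taken as members, 480 in all against 12612 other kept spots. The membership therefore rests on measured values of these same sections, and the levels of the 5 genes in the members are a description.

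The sections were coronal, from the brains of male wild-type C57BL/6J offspring at postnatal day 21. The food of the mothers held 2 mg/kg folic acid (FA) in the MF group, the control, and 20 mg/kg FA in the HF group, the excess. Gestation and nursing both passed on that food, after a lead-in of 2 weeks. Tissue was fixed in formalin, embedded in paraffin and read with Visium probes for 19465 features, and each diet had 2 sections. Values for the 4 sections are given below in the order MF replicate 1, MF replicate 2, HF replicate 1 and HF replicate 2, and as CPM, the UMIs of a gene scaled to the total UMIs of the spots summed.

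Reelin, encoded by Reln, is a secreted protein that guides the layering of cortical neurons and later acts at synapses. It is made by Cajal-Retzius cells at the brain surface during development and by interneurons afterwards. Its receptors and the adaptor Dab1 act in the neurons that receive it. Ndnf marks neurogliaform interneurons, which populate the outermost cortical layer and the stratum lacunosum-moleculare of the hippocampus, zones made mostly of dendrites, axons and glia with few neuronal bodies. Dio2, which turns thyroxine into the active thyroid hormone, and Mfge8, which tags material for engulfment, are genes of astrocytes, and Cxcl14 is a chemokine made by subsets of interneurons.

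Sections differed before any comparison. MF replicate 1 was the deepest, with 90098381 UMIs against 42423648, 34983708 and 42507273 in the others, and the members held 1860744, 962393, 730338 and 956904 UMIs. HF replicate 2 stood apart in where its members lay, with 38 beside hippocampus and 17 beside olfactory cortex and amygdala, where the other sections had 16 to 22 and 32 to 36. It also had almost no Pmch, a hypothalamic neuropeptide gene, with 1 UMI in its members. Of the array positions, 23 were members in at least 2 sections, and 2472 barcodes were kept in all 4 sections because the arrays share a barcode set.

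All 5 listed genes were higher in the members than in the other spots of each section. Ndnf (ENSMUSG00000049001, chromosome 6 of GRCm38, 65671590 to 65712326), a secreted factor of neurogliaform cells, had 135, 115, 175 and 171 CPM in the members against 12.1, 14.2, 14.2 and 13.2 in the other spots. Reln (ENSMUSG00000042453, chromosome 5, 21884454 to 22344702) had 363, 363, 355 and 317 CPM against 51.9, 51.0, 44.6 and 61.6. These were the widest gaps of the 5, 8.11-fold to 12.9-fold for Ndnf and 5.14-fold to 7.95-fold for Reln. The chemokine gene Cxcl14 (ENSMUSG00000021508, chromosome 13, 56288643 to 56296551) had 542, 590.2, 599.7 and 518 CPM in the members and 133, 134, 136 and 126 outside. Dio2 (ENSMUSG00000007682, chromosome 12, 90724552 to 90738438) had 127, 123, 155 and 162 CPM against 35.4, 39.1, 37.4 and 32.2. Mfge8 (ENSMUSG00000030605, chromosome 7, 79133768 to 79149060) showed the narrowest gap, 2.72-fold to 3.52-fold, with 242, 274, 285 and 228 CPM in the members.

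**Figure D1:**
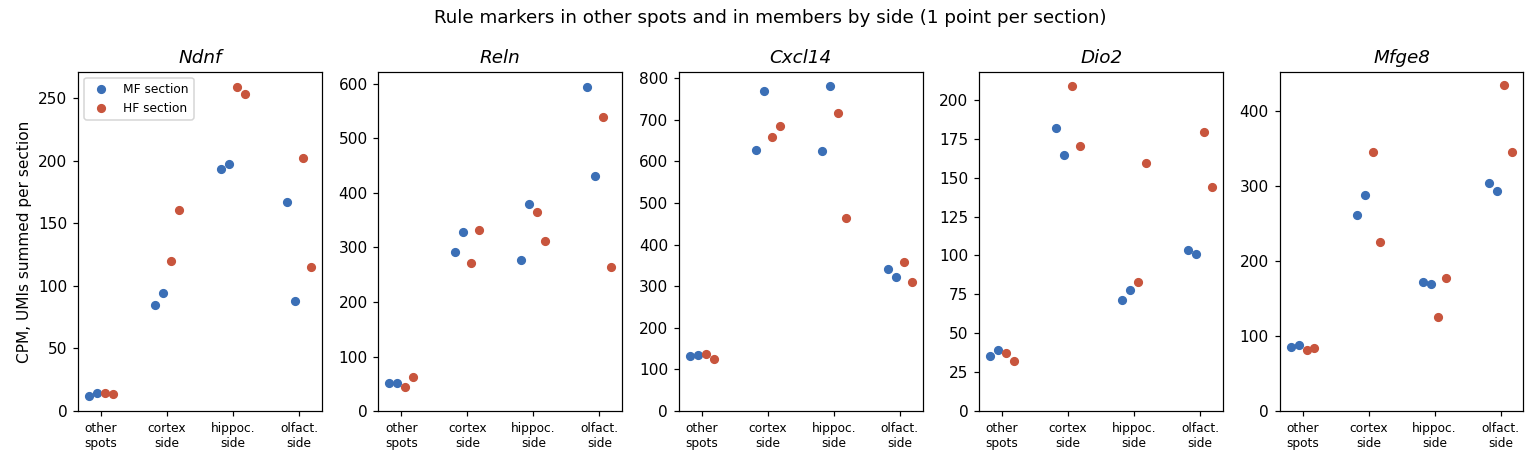
Levels in CPM of the 5 genes that chose the spots, in the members and in the other kept spots, 1 point per section. Each gene lies higher in the members of all 4 sections, by 8.11-fold to 12.9-fold for Ndnf.

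The members did not carry the 5 genes as a fixed set. At least 1 UMI of each of the 5 was counted in 50, 22.5, 12.5 and 25% of the members and in 8.03, 1.45, 0.870 and 1.05% of the other spots, and some members held only 2 of the 5. Ndnf itself was seen in 65.8, 57.5, 52.5 and 62.5% of the members, and Reln in 92.5, 90, 78.3 and 81.7%. With each spot thinned to 2000 UMIs, which left out 7 members of HF replicate 1, Ndnf was seen in 24.2, 25.8, 27.4 and 26.7% of the members and in 2.60, 2.97, 3.21 and 2.52% of the other spots. Reln was seen in 46.7, 51.7, 56.6 and 42.5% against 9.88, 10.1, 9.57 and 11.5% at that depth. The score has no gap at the threshold: the last member scored 0.893, 0.894, 0.926 and 0.896 and the next spot 0.891, 0.890, 0.925 and 0.895, with 34, 36, 29 and 33 spots outside lying within 0.05 of it. The gaps narrowed when the UMIs were split at random, members chosen on 1 set and levels read in the other, a step added after seeing the data. Read so, Ndnf was 8.49-, 3.16-, 6.51- and 5.54-fold higher in the members and Mfge8 2.27-, 2.38-, 2.22- and 2.01-fold. In MF replicate 2 the order of the gaps changed, with Reln the widest at 4.10-fold and Dio2 the narrowest at 1.70-fold.

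RNA of dendrites, astrocytes and interneurons was higher in these spots than in the other spots, while RNA of myelin and most mRNAs of neuronal bodies were lower. The lists below were counted at any level, the following shares only at 50 CPM or more. Of 4893 genes with at least 50 CPM, 19.0% were higher in the members than in the other spots of all 4 sections. Another 22.0% were lower, and the median log2 ratio was -0.02. Against this, all 9 mRNAs known to travel into dendrites were higher in every section, with a median log2 ratio of 0.46. Of 9 mRNAs kept mostly in neuronal bodies 6 were lower and 1 was higher. Among 27 astrocyte genes 21 were higher and 2 lower (median 0.59), and their summed level was 1.54-, 1.48-, 1.45- and 1.64-fold that of the other spots. Among 19 genes of neurogliaform and other interneurons 14 were higher and 1 lower (median 0.61), with summed levels 1.38-, 1.60-, 1.39- and 1.21-fold. Genes of vessel cells and of microglia were each higher for 9 of 11 (medians 0.68 and 0.61), and all 11 myelin genes were lower (median -0.72). The spots hold several cell types at once, and fewer cells of a type and less RNA per cell cannot be told apart.

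Of 8 Cajal-Retzius genes other than Reln 1 was higher and 3 were lower than in the other spots (median -0.51), and against the spots within 3 steps of a member 2 were higher and none lower (median 0.09). Lhx1, Ebf2 and Ebf3, transcription factors of these cells, were at 0 in the members of at least 1 section. Trp73, a defining transcription factor, had 3.22, 5.20, 9.58 and 14.6 CPM in the members and 3.14, 3.37, 4.70 and 5.24 in the other spots. Calb2, the most abundant of the 8 listed genes and shared with many interneurons, was lower in the members than in the other spots, with 126, 149, 125 and 129.6 CPM against 258, 276, 344 and 322, but in MF it was above the 108.5 and 99.2 CPM of the surrounding spots. The spots are therefore called Reln and Ndnf spots here, and no cell type is read from the name.

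Genes that the rule did not use also differed between the members and the other spots. This is a description without a test, since the members were chosen on these same spots. Genes were named in part by the size of this difference. Cnr1, the cannabinoid receptor carried by the axons of Cck interneurons, had 519, 468, 511 and 513 CPM in the members and 176, 167, 178 and 165 elsewhere. Kit, a receptor kinase of some interneurons, had 118, 90.4, 84.9 and 84.6 CPM against 32.5, 32.1, 30.9 and 34.5. Both were higher in every section, by log2 ratios of 1.48 to 1.63 and 1.27 to 1.83. Among dendritic mRNAs, Ddn was higher by 0.98 to 1.18 and Camk2a, a postsynaptic kinase, had 1438, 1238, 1388 and 1713 CPM against 717, 654, 698 and 786. Among astrocyte genes, the glutamate transporter Slc1a3 was higher by 0.95 to 1.04, the tissue factor gene F3 by 0.88 to 1.11 and the engulfment receptor Mertk by 1.01 to 1.31. Gfap, the filament of astrocytes near the surface, had 260.1, 240.03, 263 and 209 CPM against 155, 172, 121 and 118. The prostaglandin D synthase gene Ptgds, abundant in the meninges, had 333, 277, 531 and 289 CPM in the members, 129.6, 119, 202 and 89.6 in the other spots and 4580, 2730, 5043 and 2453 in the spots set aside.

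Markers of deep grey matter lay at the other end. Prkcd and Rgs16, both thalamic, were lower in the members by log2 ratios of -1.74 to -1.10 and -1.49 to -1.14, and Slc17a6, the glutamate transporter of subcortical neurons, by -1.65 to -1.04. Mbp, the myelin basic protein gene, had 5828, 5858, 4531 and 5564 CPM in the members against 9009.9, 9765, 8038 and 8135. Compared only with the non-member spots within 3 steps of a member on the array (4481 spots), Mbp was nearly level, with 5337, 6001, 4521 and 5079 CPM around the members, and of the 11 myelin genes 2 were higher and 1 lower. The astrocyte list kept its distance from these surroundings, with 23 of 27 genes higher, none lower and a median of 0.67, and genes of vessel cells and of microglia were each higher for 10 of 11. The dendritic mRNAs were less distant, with 7 of 9 higher, 1 lower, a median of 0.24 and summed levels 1.08-, 1.06-, 1.13- and 1.16-fold, against 1.45-, 1.44-, 1.51- and 1.52-fold over all other spots. Of the 4838 genes with at least 50 CPM there, 15.8% were higher and 22.0% lower in all sections, with a median of -0.03.

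Within their surroundings the members were poorer in mRNAs of neuronal bodies. All 9 of the body mRNAs were lower than in the spots around (median -0.29). Neurod6, a transcription factor of cortical projection neurons, had 44.6, 43.6, 65.7 and 81.5 CPM against 111, 96.3, 101 and 132, and Slc17a7, the glutamate transporter of the same neurons, 2017, 2262, 1922 and 1905 against 2748, 2672, 2316 and 2562. Of 19 interneuron genes 13 were higher in the members and 4 lower (median 0.63). Gad2, which makes GABA, was higher, with 518, 438, 445 and 429.5 CPM in the members and log2 ratios of 0.73 to 1.22. So was Npy, a peptide of neurogliaform cells, with 419, 471, 397 and 332 CPM against 253, 236, 279.8 and 257. Lamp5, another gene of neurogliaform cells but one that superficial projection neurons also use, was lower than around them, with log2 ratios of -0.28 to -0.03, although it was 0.65 to 0.80 higher than in all other spots.

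The pathways of the listed genes were less uniform, and are counted here without the listed genes themselves, beside the 19.0% higher and 22.0% lower over all genes with at least 50 CPM. Of 20 measured genes of the reelin pathway 5 were higher and 3 lower than in the other spots (median 0.06). The adaptor Dab1 was the clearest of them, with 106, 97.7, 98.6 and 94.1 CPM against 64.2, 57.7, 53.1 and 67.1. The receptor Lrp8 was slightly higher in every section, by log2 ratios of 0.08 to 0.33, and the receptor Vldlr differed in sign between sections (-0.13 to 0.16). For thyroid hormone handling 4 of 11 genes were higher and 1 lower (median 0.15), and Slco1c1, the thyroxine carrier of vessels and astrocytes, had 95.7, 92.5, 101 and 121 CPM against 52.5, 51.7, 59.4 and 47.5. In the engulfment list 6 of 11 were higher and 2 lower (median 0.33). For folate metabolism 4 of 22 genes were higher and 3 lower (median -0.03). For this list and the reelin pathway the share of higher genes was near that over genes with at least 50 CPM. The lists had no such floor, so these shares are not at a like level. Shmt1 and Ahcy of the folate list were at 0 in the members of at least 1 section. Folate genes included Cbs, which takes homocysteine toward cysteine, with 47.3, 44.7, 46.6 and 37.6 CPM against 26.3, 26.5, 28.2 and 22.9. Among 3 other CXCL chemokine and receptor genes 1 was higher (median 0.21), and among 5 genes of oligodendrocyte precursors 2 were higher and 2 lower. Of 8 choroid plexus and ependymal genes 6 were lower, and of 16 immediate early genes 5 were higher and none lower (median 0.11). Against the surrounding spots 15.8% of all genes with at least 50 CPM were higher and 22.0% lower. The choroid plexus list had none higher or lower there, and of the immediate early genes 1 was higher and 4 were lower (median -0.20). There the reelin pathway had 5 of 20 higher and 5 lower, thyroid hormone handling 2 of 11 and 1, the engulfment list 6 of 11 and 0, the CXCL list 1 of 3 and 0, folate metabolism 6 of 22 and 2, and oligodendrocyte precursors 3 of 5 and 0.

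Meningeal RNA remained in the members. All 6 genes used to set spots aside were higher in the members than in the other spots of every section, with summed levels 2.01-, 1.61-, 2.05- and 1.97-fold, and Col1a2, the most abundant, had 55.9, 54.0, 82.2 and 26.1 CPM against 34.5, 34.9, 43.4 and 21.4. Of 12 further meningeal and fibroblast genes 6 were higher and none lower (median 0.53). Of the members, 25.8, 27.5, 20 and 25% touched a spot that had been set aside, against 5.67, 7.96, 6.33 and 6.61% of the other spots. The part of meningeal RNA in the values of the members was not tested.

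Many members lay at the tissue border, and others lay inside it. A spot was counted as lying at the border when it had fewer than 6 neighbours under tissue. This held for 39.2, 34.2, 37.5 and 30% of the members and for 5.22, 7.51, 5.59 and 5.46% of the other spots. The difference was 29.3 ± 4.40 percentage points (SD, n = 4 sections) and positive in every section, with a two-sided exact p of 0.13 over sign flips, the smallest that 4 sections allow. With spots thinned to 5000 UMIs, which left out the shallower spots, and members chosen anew, the differences were 24.4, 20.3, 3.07 and 13.3 points. Of the neighbours of a member, 22.8, 15.2, 16.1 and 17.6% were members themselves, where members made up 3.42, 3.72, 3.86 and 3.69% of the members and other spots. The diets differed there by -2.16 points (exact permutation p = 1), which was 1.63 without MF replicate 1. Moran's I, the deposited score of how far nearby spots resemble each other, was 0.197, 0.147, 0.140 and 0.124 for Reln, which ranked 1130 of 18235, 1023 of 17196, 1050 of 16731 and 1326 of 18100 features. For Ndnf it was 0.0913, 0.0705, 0.0882 and 0.0620.

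**Figure D2:**
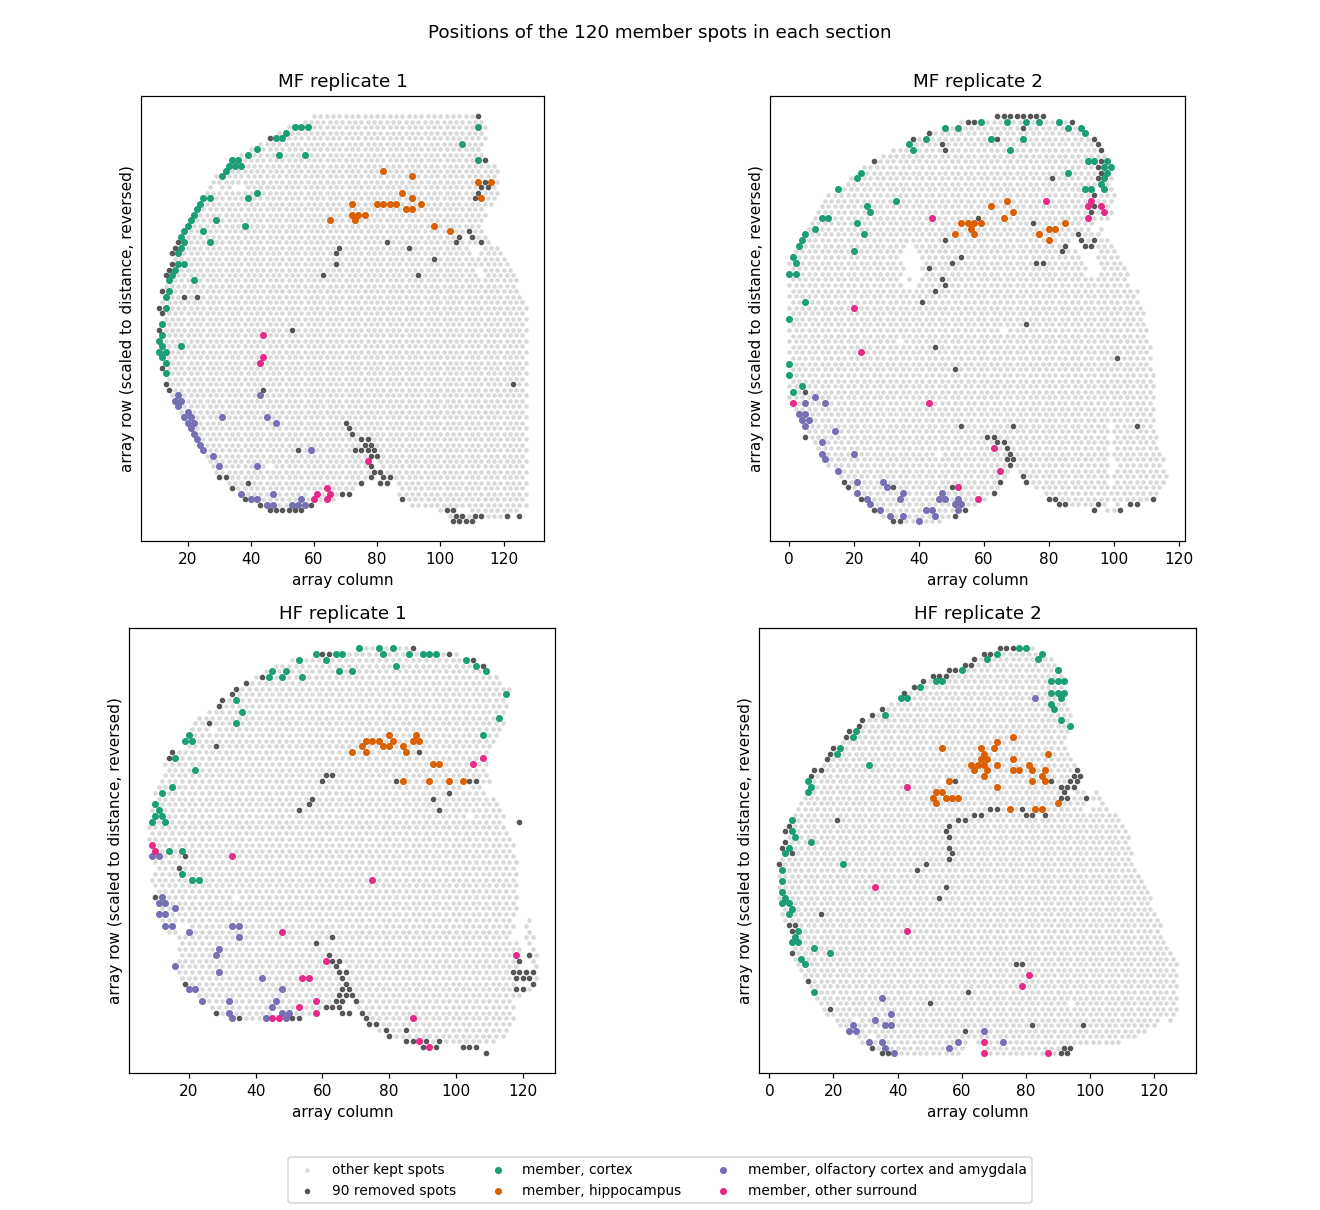
Positions of the spots on the array in each of the 4 sections, by array column and row, with the members coloured by the tissue around them, the spots set aside and the other spots in grey. The members lie both at the tissue edge and inside it, and 39.2, 34.2, 37.5 and 30% of them lie at the border.

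Members were shallow spots, which is a description, since the score divides by the UMIs of a spot. Their median was 14071.5, 7539.5, 5196.5 and 7393 UMIs against 23874.5, 12220.5, 9500 and 11988 in the other spots. The ratio of the medians was 0.589, 0.617, 0.547 and 0.617, and it was nearer to 1, at 0.650, 0.726, 0.821 and 0.767, when members were chosen anew with spots thinned to 5000 UMIs. Thinning kept only spots with at least 5000 UMIs, 3589, 3216, 2687 and 3218 of the 3598, 3314, 3197 and 3343 kept spots. With thinned spots the ratios of both HF sections lay above those of both MF sections. Shallow spots were left out unevenly between sections there, and their part in this was not tested. The share at the border differed by -2.92 points between the diets, which overlapped (33.8% in HF, 36.7% in MF; exact permutation p = 0.667), a difference that was 0.833 points without HF replicate 2 and -15.8 points with thinned spots, where the shares were 30 and 26.7% in MF against 6.67 and 18.3% in HF and did not overlap. The part of the spots left out by thinning in that difference was not tested. With 2 sections against 2 no exact p can go below 0.33.

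By the tissue around them, most members fell into 3 groups. The side of a member was taken from the non-member spots within 3 steps, by the highest of 7 marker lists. Cortex surrounded 57, 53, 48 and 57 members, hippocampus 22, 16, 21 and 38, and olfactory cortex and amygdala 32, 36, 32 and 17. The rest were beside hypothalamus (24 in all), striatum (13), white matter (13) and thalamus (1). The diets overlapped on each side, with HF minus MF at -2.5 for cortex (exact permutation p = 1), 10.5 for hippocampus (p = 0.667) and -9.5 for the olfactory side (p = 0.667). Members of the cortex side often lay at the border (50.9, 49.1, 43.8 and 45.6%), and those of the hippocampus side seldom did (0, 0, 4.76 and 7.89%).

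The listed genes were mixed differently on each side, again as a description. Ndnf was highest beside hippocampus in each section, with 193, 197, 259 and 253 CPM against 85.0, 94.0, 120.1 and 161 beside cortex. Reln was highest on the olfactory side in all sections but HF replicate 2, with 595, 431, 539 and 265 CPM there against 292, 329, 271 and 331 beside cortex. Dio2 was lower beside hippocampus than beside cortex, with 71.5, 77.5, 83.1 and 159.6 CPM against 182, 164, 209 and 170.4, although the gap was small in HF replicate 2. Cxcl14 was lowest on the olfactory side, with 342, 321, 359 and 311 CPM.

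Hippocampus-side and cortex-side members differed in 422 of 7143 genes (5.91%), 205 higher and 217 lower beside hippocampus. Cabp7, a calcium-binding protein gene, had 296, 296, 351 and 343 CPM beside hippocampus and 38.3, 23.5, 23.2 and 30.8 beside cortex, so the sides stood far apart in each section (log2 difference 3.33, SE 0.18, adjusted p = 1.8e-71). Thbs4, a synapse-promoting thrombospondin of astrocytes, had 69.4, 35.2, 55.4 and 97.1 CPM against 12.0, 15.7, 7.75 and 7.10 (2.60, SE 0.34, adjusted p = 3.85e-12). Doc2b, a calcium sensor of vesicle release, was higher by 1.91 (SE 0.21, adjusted p = 1.48e-17) and the transcription factor Npas1 by 1.35 (SE 0.27, adjusted p = 4.02e-05). Vip, a peptide of interneurons, went the other way, with 139, 326, 155 and 151.5 CPM beside cortex and 77.8, 42.3, 32.3 and 31.2 beside hippocampus (-1.70, SE 0.20, adjusted p = 1.43e-15). Lamp5 had 347, 321, 383 and 305 CPM beside cortex and 132, 98.7, 185 and 128 beside hippocampus (-1.31, SE 0.14, adjusted p = 4.36e-19).

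The fixed lists were also compared between these sides. Of the myelin genes 5 also served to set apart members beside white matter and are not counted, and the other 6 were all higher beside hippocampus, with 4 called (median log2 difference 0.74). Among them Cnp, an enzyme of myelin, had 1976, 2093, 1409 and 1929 CPM against 1144, 1295, 895 and 945. Of 24 astrocyte genes 20 were higher and 7 called (median 0.17), among them Gfap with 393, 402, 443 and 339.98 CPM against 198, 190.6, 96.8 and 147, and the water channel Aqp4. Of 15 interneuron genes 4 were called, all lower (Lamp5, Vip, Kit and Npy; median -0.20). Among 9 dendritic mRNAs 6 were positive (median 0.19), with Ddn, Camk2a, Psd and Ppp1r9b called higher and Nrgn and Kif5a called lower. Of 9 immediate early genes, which neurons switch on with activity, 6 were negative (median -0.14), while Arc and Nr4a3 were called higher. In the reelin pathway 9 of 19 genes were higher and no gene passed the test (median -0.01). Over all genes tested the median was 0.01.

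Ttr and Ptgds are genes of tissue that borders such spots. Ttr, made by the choroid plexus, had 2614, 1522, 4688 and 3514 CPM beside hippocampus and 879, 1016, 1042 and 1356 beside cortex (1.47, SE 0.08, adjusted p = 1.8e-71), and of the other 7 choroid plexus and ependymal genes none had enough UMIs to be tested there. Ptgds had 145, 77.5, 120.1 and 146 CPM beside hippocampus and 289.8, 201, 647 and 459 beside cortex (-1.55, SE 0.13, adjusted p = 3.43e-27), but its log2 difference was 0.08 among members that do not lie at the border, a comparison added after seeing the data. With those members 476 genes were called, 347 of them among the 422. Without MF replicate 1 the count was 245, DESeq2 called 66, and no gene of the 16 named by the rule changed direction or lost its call when 1 section was left out.

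The olfactory side, examined after the data had been seen, differed from the cortex side in 285 of 7334 genes (3.89%), 133 higher and 152 lower. Hap1, the huntingtin-associated protein gene, had 417, 475, 374 and 271 CPM on the olfactory side and 149.7, 128, 124 and 114 beside cortex (1.56, SE 0.13, adjusted p = 2.98e-15). Hpcal1, a neuronal calcium sensor, had 177, 201, 195 and 97.9 CPM against 35.9, 47.0, 38.7 and 56.8 (1.94, SE 0.20, adjusted p = 3.07e-11). Nrp2, a semaphorin receptor, was higher by 1.82 (SE 0.27, adjusted p = 7.56e-07), and the axon guidance receptor gene Robo3 was lower by -1.96 (SE 0.35, adjusted p = 5.24e-05). For each of these 4 genes the sides did not overlap, which their choice as named genes required. Npy had 142, 289.6, 217 and 242 CPM against 659.8, 614, 573 and 393 (-1.42, SE 0.14, adjusted p = 8.83e-13), and Lamp5 was lower by -1.57. In the interneuron list 14 of 15 genes were lower and 5 were called (Lamp5, Npy, Vip, Cck and Gad2; median -0.57), while the median over all genes was 0.00. Without MF replicate 1 the count was 110 and without MF replicate 2 it was 186, DESeq2 called 44, and Igfbp6, a growth factor binding protein gene called at -1.51, lost its call without MF replicate 1 (-1.39) or HF replicate 2 (-1.35).

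Few genes differed between the diets in the members. Between HF and MF 10 of 10330 genes were called (0.0968%), 6 higher and 4 lower in HF. Egr1, an immediate early transcription factor, had 52.1 and 81.0 CPM in MF against 233 and 333 in HF (log2 fold change 2.17, SE 0.17, adjusted p = 2.03e-14). Arc, an immediate early gene whose mRNA is carried to active synapses (ENSMUSG00000022602, chromosome 15, 74669083 to 74672570), had 55.4 and 42.6 against 160.2 and 109.7 CPM (1.38, SE 0.19, adjusted p = 2.18e-06). For both genes each HF section lay above each MF section, and the call held whichever section was left out. Ttr, the thyroxine carrier of the choroid plexus, had 1273 and 877 CPM in MF and 1957 and 1871 in HF (0.82, SE 0.11, adjusted p = 1.85e-06). Its call also held without any 1 section, but not with DESeq2, nor with 60 members per section, where the change was 0.32.

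Of the other called genes, Pmch kept its call whichever section was left out, and the rest lost theirs in at least 1 such fit. Pmch had 239 and 158 CPM in MF against 68.5 and 1.04 in HF (-2.74, SE 0.30, adjusted p = 7.53e-09), a change of -1.61 when HF replicate 2 was left out and of -7.50 when HF replicate 1 was. In the other spots Pmch had 704, 513, 329 and 0.693 CPM, so HF replicate 2 had almost none anywhere in the section. The 6 genes of the hypothalamus list summed to 605, 688, 785 and 551 CPM in the members and 1024, 1227, 1177 and 932 in the other spots, lowest in HF replicate 2, with Nnat the most abundant and none at 0 in the members. Between the diets 5 of the 6 were negative in the members (median -0.18). How far back each section was taken is not given in the labels, and its part in the Pmch call was not tested. Btaf1, a regulator of the TATA-binding protein, had 74.2 and 72.7 against 35.6 and 34.5 CPM (-1.08, SE 0.22, adjusted p = 0.0184). Its call was lost without MF replicate 1 (-1.07) or HF replicate 2 (-1.06), and its change was -0.42 when the sides were given equal numbers of spots. Mt2, a metal-binding metallothionein of astrocytes, had 851 and 734 against 609 and 518 CPM (-0.51, SE 0.11, adjusted p = 0.0413), lost without MF replicate 1 (-0.40) or HF replicate 2 (-0.40). Pcp4, a calmodulin regulator, had 778 and 797 against 514 and 606 CPM (-0.49, SE 0.11, adjusted p = 0.0413) and Midn, which promotes the breakdown of immediate early proteins, 50.5 and 37.4 against 98.6 and 76.3 CPM (0.91, SE 0.20, adjusted p = 0.0413). The groups did not overlap for these 5 genes, and the share of all genes without overlap was not counted. Both Pcp4 and Midn kept the call only without HF replicate 2 (-0.63 and 1.09), with -0.52, -0.48 and -0.38 for Pcp4 and 1.19, 0.76 and 0.73 for Midn without MF replicate 1, MF replicate 2 and HF replicate 1. Stk38, a kinase gene, had 11.8 and 17.7 against 21.9 and 53.3 CPM (1.49, adjusted p = 0.0413), lost without HF replicate 2 (0.64) or MF replicate 1 (1.13). Tie1, an endothelial receptor gene, had 7, 2, 12 and 15 UMIs and lost its call in every such fit (2.05 to 2.85).

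**Figure D3:**
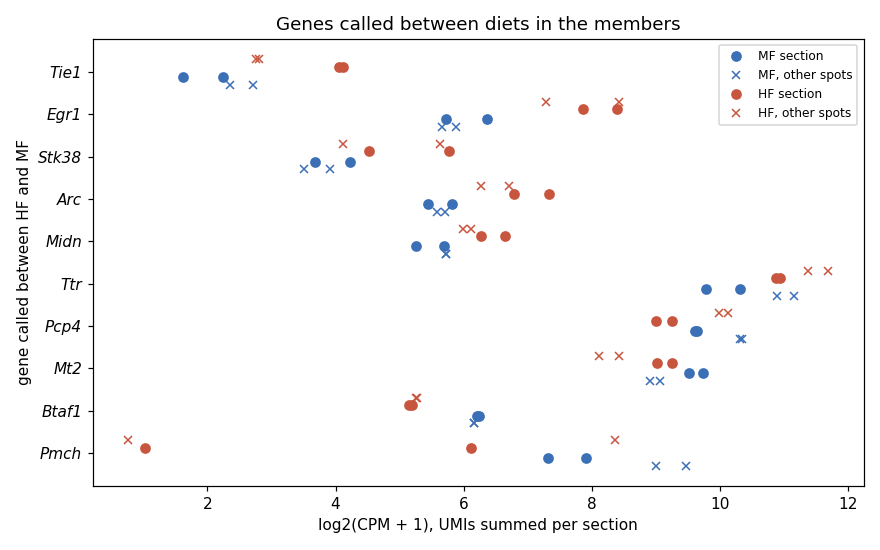
Levels in CPM on a log axis of the genes called between HF and MF in the members, 1 point per section, with MF and HF in separate colours. For Egr1 the HF sections sit at 233 and 333 CPM and the MF sections at 52.1 and 81.0.

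The number of called genes depended on the sections. Leaving out HF replicate 1 gave 57 genes and leaving out HF replicate 2 gave 32. The count was 2 with DESeq2 (both among the 10), 24 without a filter on low counts, 2 with 60 members per section and 1 with spots thinned to 5000 UMIs. Egr1 was called in every one of these fits, while Arc was not called with 60 members (1.45) or thinned spots (1.14), nor Pmch with DESeq2 (-2.53), 240 members (-1.97) or thinned spots (-2.49). Where 1 section was left out of a diet, the lone section was taken to vary like the others.

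All 13 immediate early genes that could be tested were positive (median 0.72), and 2 were called, Egr1 and Arc, against a median of 0.00 and 50.5% positive over all genes. Fos, the best known of them, had 3.76 and 2.08 against 12.3 and 17.8 CPM (2.23, adjusted p = 0.0729), and the orphan receptor Nr4a1 had 41.9 and 41.6 against 84.9 and 71.1 CPM (0.88, adjusted p = 0.0729), neither called. All 11 myelin genes were lower in HF (median -0.32) and did not pass the test. Of 26 astrocyte genes 14 were positive (median 0.02), of 19 interneuron genes 5 (median -0.14), of 11 vessel genes 8 (median 0.11) and of 11 microglial genes 6 (median 0.01), none called.

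The pathways of the listed genes gave no called gene, with Ttr counted in the choroid plexus list. In the reelin pathway 9 of 20 genes were positive with a median of -0.02, and its receptor Vldlr had 99.4 and 85.2 against 87.6 and 101 CPM. Of 10 genes of thyroid hormone handling 8 were positive (median 0.16), led by the receptor gene Thrb with 27.9 and 34.3 against 45.2 and 40.8 CPM (0.49, adjusted p = 0.813). In folate metabolism 7 of 15 were positive (median -0.04). The listed genes themselves, which have no test here because the rule fixed their rank in each section, had log2 values of 0.44 for Ndnf and -0.13 for Reln between HF and MF. Among genes with the smallest p that were not called were the insulin-degrading enzyme Ide (-0.84, adjusted p = 0.116), the sterol synthesis gene Cyp51 (-0.65, adjusted p = 0.123) and Vip (98.9 and 199.5 against 79.4 and 83.6 CPM; -0.79, adjusted p = 0.134), the last -0.28 without MF replicate 2.

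Most of the diet change in the members was not shown to be particular to them. The difference between the diet effect in the members and that in all other spots was called for 3 of 14464 genes (0.0207%). None of the 10 genes was among these: Egr1 had a difference of -0.08 (adjusted p = 1), Ttr 0.31 (adjusted p = 0.112), Arc 0.54 (adjusted p = 0.790) and Pmch -0.65 (adjusted p = 0.830). Of 16 immediate early genes 8 were positive (median -0.00). Of 11 myelin genes 9 were negative (median -0.04, against -0.01 over all genes), without a call. Against the surrounding spots 6 of the 11 were negative (median -0.01), also without a call. In the other spots the myelin genes summed to 26634 and 27804 CPM in MF against 22134 and 23598 in HF. Ttr in the other spots had 2266, 1904, 3308 and 2663 CPM.

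The 3 genes were Sst, Ppp1r1b and Gpr50. Sst, the somatostatin gene of interneurons, had 655, 1163, 712 and 653 CPM in the members and 440.4, 517, 509 and 513 in the other spots, so the members of MF replicate 2 were the highest and the other 3 sections lay together (difference -0.47, SE 0.09, adjusted p = 0.000865). Without MF replicate 2 the difference was -0.16 and without HF replicate 2 -0.40, both without a call, and with spots thinned to 5000 UMIs it was 0.43. Ppp1r1b, the dopamine-regulated phosphatase inhibitor of striatal neurons, had 271, 224, 134 and 237 CPM against 253, 208, 154 and 341 (-0.53, SE 0.12, adjusted p = 0.0302), and kept its call only without HF replicate 1, with -0.52, -0.51 and -0.32 without MF replicate 1, MF replicate 2 and HF replicate 2. Striatal genes had the same sign: all 6 of the list used for the striatum side were negative in this comparison (median -0.62, against -0.01 over all genes), without a call. They summed to 252, 246, 192 and 201 CPM in the members and 295, 276, 231 and 356 in the other spots, with Penk the most abundant and Drd1 at 0 in the members of at least 1 section, and their part in the value of Ppp1r1b was not tested. Gpr50, a receptor gene related to those of melatonin, had 0, 0, 4 and 3 UMIs in the members and 255, 50, 20 and 16 in the other spots (adjusted p = 0.0302), a call lost in every fit without 1 section. Counts were 5 without MF replicate 1, 0 without MF replicate 2, 6 without HF replicate 1 and 1 without HF replicate 2. DESeq2 called 0, with 99 at an unadjusted p under 0.05 against 622 by edgeR.

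Against the surrounding spots alone, a comparison added after seeing the data, the diet effect differed for 9 of 13339 genes (0.0675%), 1 higher and 8 lower. In the interneuron list 12 of 19 genes were negative (median -0.22, against -0.01 over all genes) and 2 were called, Sst and Npy. Sst had 655, 1163, 712 and 653 CPM in the members and 449, 570, 610 and 489 around them, highest in the members of MF replicate 2 (difference -0.46, SE 0.08, adjusted p = 0.000187). Calb2, a calcium buffer counted here in the Cajal-Retzius list, had 126, 149, 125 and 129.6 CPM in the members and 108.5, 99.2, 178 and 179 around them, so that the surroundings were higher in HF and the members were not (difference -0.85, SE 0.14, adjusted p = 1.38e-05). Tac2, a tachykinin gene, had 65.6, 95.6, 56.1 and 34.5 CPM in the members against 62.8, 53.1, 84.8 and 69.2 (-1.16, SE 0.20, adjusted p = 7.8e-05). Npy had 419, 471, 397 and 332 CPM against 253, 236, 279.8 and 257 (-0.41, SE 0.09, adjusted p = 0.0397), and Grik1, a kainate receptor gene of interneurons, 82.2, 70.7, 52.0 and 37.6 CPM against 33.5, 36.1, 35.5 and 34.9 (-0.86, SE 0.21, adjusted p = 0.0497). For Tac2 and Grik1 both HF sections lay below both MF sections in the members, while the surroundings of Grik1 were level. Chga, a granule protein gene, was the only one higher, with 282, 269, 478 and 266.5 CPM in the members, where HF replicate 1 alone was high.

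These calls were not stable to the sections. Sst lost its call without MF replicate 2 (-0.21), HF replicate 1 (-0.37) or HF replicate 2 (-0.54), and it was 0.46 with thinned spots. Calb2 lost its call without MF replicate 2 (-0.70) or HF replicate 2 (-0.86), and Tac2 did so without MF replicate 2 (-0.84) or HF replicate 2 (-0.95). Npy lost it without MF replicate 2 (-0.28), HF replicate 1 (-0.47) or HF replicate 2 (-0.32), Grik1 in every such fit (-1.08 to -0.61) and Chga without MF replicate 1 (0.50), MF replicate 2 (0.43) or HF replicate 1 (0.15). Leaving out MF replicate 2 gave 0 called genes, HF replicate 1 gave 3 and HF replicate 2 gave 2, and DESeq2 gave 0, with 66 at an unadjusted p under 0.05 against 608 by edgeR.

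Within the cortex side 17 of 7959 genes differed between the diets (0.214%), 7 higher and 10 lower in HF. Egr1 had 50.3 and 104 CPM in MF against 325 and 393 in HF (2.39, SE 0.20, adjusted p = 3.29e-28), Nr4a1 33.5 and 47.0 against 124 and 102 (1.53, SE 0.29, adjusted p = 0.000144) and Arc 44.3 and 28.7 against 178 and 78.1 (1.59, SE 0.28, adjusted p = 3.8e-05). Junb rose as well (1.33, adjusted p = 0.0438). All 10 tested immediate early genes were positive (median 0.95), and these 4 were called. Of 11 myelin genes all were negative, with 5 called (Mbp and Mobp among them) and a median of -0.53, against 0.00 over all genes. Whether the myelin change of the cortex side differs from that of other spots was not tested. Sst had 872 and 1172 against 469 and 606 CPM (-0.90, SE 0.14, adjusted p = 4.45e-07) and Ptgds 289.8 and 201 against 647 and 459 (1.09, SE 0.16, adjusted p = 1.17e-08). Pmch had 214 and 193 against 50.4 and 2.37 CPM (-3.30, SE 0.31, adjusted p = 2.87e-22), and kept its call whichever section was left out. For each of these named genes the diets did not overlap, which the choice of named genes by size of change required.

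Not all of these held in other fits. With 60 members per section 1 gene was called, Pmch, and Egr1 (2.16), Nr4a1 (1.13) and Arc (1.90) were not. With spots thinned to 5000 UMIs and members chosen anew, the change was 0.09 for Sst, -0.04 for Ptgds and -0.13 for Arid5b, a DNA-binding factor that was called at 1.51. Without MF replicate 2 the count was 9, with Sst at -0.69, Pcp4 at -0.67 and Mal at -0.58 no longer called. Without HF replicate 1 Arc (0.97), Junb (0.70), Pcp4 (-0.60) and Mal (-0.45) lost their calls, without HF replicate 2 Btaf1 (-1.24) and Mt2 (-0.39) did, and without MF replicate 1 Nr4a1 (1.22), Junb (1.21), Btaf1 (-1.24), Mt2 (-0.41) and Mal (-0.56) did. Junb (1.40) and Mt2 (-0.74) were also lost without MF replicate 2. Mbp and Mobp lost theirs without MF replicate 2 (-0.34 and -0.44) or HF replicate 1 (-0.36 and -0.37). Stk38 (1.41 to 2.06 without MF replicate 1, MF replicate 2 or HF replicate 2), Arid5b (0.84 to 1.96 without the same sections) and Mog (-0.86 to -0.69 in every fit) lost their calls. DESeq2 called 3 genes, Egr1, Sst and Ptgds, and not Pmch (-2.98), Arc (1.74) or Nr4a1 (1.51). When no meningeal spots were set aside 4 genes were called.

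On the hippocampus side 3 of 6325 genes were called (0.0474%). Egr1 rose from 52.5 and 77.5 CPM in MF to 245 and 305 in HF (2.22, SE 0.28, adjusted p = 0.000106), and Arc from 75.7 and 98.7 to 245 and 201 (1.42, SE 0.27, adjusted p = 0.0314). Pmch had 179, 127, 27.7 and 0 CPM (-3.74, SE 0.51, adjusted p = 0.000222). Without MF replicate 1 Arc (1.16) and Pmch (-3.33) lost their calls, as both did by DESeq2 and with thinned spots (0.76 and -2.72), and Egr1 kept its own in all 4 such fits, though not with 60 members (1.93), where Arc (1.30) lost its own too, while the counts were 5, 8, 12 and 11 without MF replicate 1, MF replicate 2, HF replicate 1 and HF replicate 2. Arc was not called either when no spots were set aside. Ttr had 2614, 1522, 4688 and 3514 CPM and missed the threshold (0.94, adjusted p = 0.0510). All 11 myelin genes were lower (median -0.43) and all 9 dendritic mRNAs were higher (median 0.20), without passing the test.

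The olfactory side, added after seeing the data, gave 0 of 6075 genes (0%) with edgeR, where 251 had an unadjusted p under 0.05, and DESeq2 gave 0, with 22 unadjusted. Egr1 had 50.6 and 75.5 CPM in MF and 97.3 and 236 in HF, higher in both HF sections (1.48, adjusted p = 0.159). Pmch (-2.53, adjusted p = 0.0606) and Mt2 (-0.98, adjusted p = 0.0976) also missed the threshold. The counts were 1 without MF replicate 1, 5 without MF replicate 2 and 7 without HF replicate 1. Whether the diet effect differed between the sides was not tested. Of the 10 genes called over all members, 7 were among the 17 of the cortex side and 3 were the 3 of the hippocampus side, comparisons that share these spots.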

How the data were processed

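The 4 Visium-FFPE sections were used as labelled, 2 per diet. Per the file headers and labels, the authors made the deposited count tables with Space Ranger 2.0.0 on mm10 (GRCm38), as whole UMI counts without normalization. The Moran's I of each feature is a deposited score and was used as given. Gene positions come from GENCODE vM21, where 19451 of 19465 features matched by identifier; 22 features share a symbol with another.

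UMIs were summed per section, since spots of a section are not replicates, and compared in R 4.3.3 with edgeR 4.0.16 (quasi-likelihood fit, filterByExpr, TMM factors), with section as a block within sections. A call needed at least 1.2-fold and an adjusted p (Benjamini-Hochberg) under 0.05. The listed genes, those used to set spots aside and, between sides, those that define sides were not counted. The labels do not say whether sections of a diet come from separate litters, so p-values measure the spread between sections. edgeR estimates that spread partly from all genes together, so a small p can stand beside sections of 1 diet that lie far apart. An example is Pmch on the cortex side, with 50.4 and 2.37 CPM in the HF sections. Single values had exact tests. Depth ranged from 34983708 to 90098381 UMIs per section, so low genes are least precise in the shallow sections.

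Named genes are up to 8 called genes per direction with the largest change whose sections do not overlap or, with fewer than 5 called, the 5 smallest p; members of the lists; and, of members against other spots, the 15 highest and 10 lowest with at least 50 CPM. Members and lists were chosen with earlier results of these data known. Alternatives were DESeq2 1.42.0, library size alone, no filter, a replicate block, 60 or 240 members, thinning to 5000 UMIs, no removal, each section left out and, added later, equal sides (16 spots each), members off the border and a random split of the UMIs. Methods were tested on simulated data. Scripts used Python 3.11.15, numpy 2.4.6, pandas 2.3.3 and scipy 1.17.1. Results for an item withheld for evaluation are not reported here.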

Additional observations from a re-analysis of the deposited data

Results flagged for a closer look

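These genes are given because the diet effect in the Reln and Ndnf spots differed from that in other spots of the same sections, by edgeR's test of the difference with Benjamini-Hochberg adjustment. Against all other kept spots they were Sst (adjusted p = 0.000865), Gpr50 (adjusted p = 0.0302) and Ppp1r1b (adjusted p = 0.0302). Sst and Ppp1r1b were lower in HF relative to MF in the members than in the other spots, and Gpr50 was counted in the members of the HF sections only, with 4 and 3 UMIs. Each of the 3 lost its call in at least 2 of the 4 fits that left out 1 section, and Gpr50 in all 4.

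Against the surrounding spots, a comparison added after seeing the data, the difference was negative for Calb2 (adjusted p = 1.38e-05), Tac2 (adjusted p = 7.8e-05), Sst (adjusted p = 0.000187), Ttr (adjusted p = 0.0362), Npy (adjusted p = 0.0397), Pcp4 (adjusted p = 0.0397), Rab37 (adjusted p = 0.0497) and Grik1 (adjusted p = 0.0497), and positive for Chga (adjusted p = 0.0211). Ttr had 1258, 796, 4174 and 1263 CPM in the surrounding spots, where HF replicate 1 was far above the other 3 sections, and a difference of -0.33, the opposite sign to its 0.31 against all other spots. That sign turned without HF replicate 1 (0.49) and with 60 members (0.45). Rab37 had 38, 17, 6 and 9 UMIs in the members, and a difference of -1.69. With thinned spots the difference was -0.00195 for Rab37 and -0.16 for Pcp4. No call among these 9 held in all 4 fits that left out 1 section, and those of Pcp4 (-0.45 to -0.28), Rab37 and Grik1 were lost in each of them. The causes of these differences were not tested.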

How the results depend on the processing

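Over the named genes, 1266 of 1280 values under an alternative kept their direction, and 12 of 114 results reversed in at least 1 setting; the cause was not tested. With spots thinned to 5000 UMIs, Sst was 0.43 against other spots, 0.46 against the surrounding spots, 1.43 between diets beside hippocampus and 0.0869 beside cortex, Cyp51 was 0.12 beside hippocampus, and Arid5b (-0.13) and Ptgds (-0.0405) turned beside cortex. With 60 members the difference of Ttr was -0.20 against other spots and 0.45 against the surroundings, where it was also 0.49 without HF replicate 1 and -1.15 without HF replicate 2, with 240 members Sst was 0.0682 beside hippocampus and the difference of Npy against the surroundings 0.135, Ptgds was 0.0844 between sides off the border, and Cga was -3.91 without HF replicate 1.

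Counts of called genes are listed by setting. DESeq2 gave 2 in all members, 0 against other spots, 0 against the surroundings, 66 and 44 for the hippocampus and olfactory sides against cortex, and 1 and 3 between diets beside hippocampus and cortex. Without the filter the counts were 24 in all members, 7 beside hippocampus and 5 on the olfactory side, and with library size alone 2 on the olfactory side. With 60 members they were 2, 1 against other spots, 2 against the surroundings, 127 and 42 between sides, and 0 and 1 between diets beside hippocampus and cortex. With 240 members they were 5 against the surroundings, 1185 and 772 between sides, and 6, 2 and 3 between diets beside hippocampus, cortex and olfactory tissue. Thinning gave 1 in all members, 0 against other spots, 1 against the surroundings, 219 and 123 between sides, and 2 and 6 between diets beside hippocampus and cortex. Setting no spots aside gave 4 beside cortex, 1 against the surroundings, 162 between olfactory and cortex side and 1 on the olfactory side. Of the calls against the surroundings, 0 were among the 9 of the main fit with 240 members, thinning or no spots set aside. With 60 members 1 was. Against other spots 0 of the 3 main genes were called with 60 or 240 members.

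Leaving out 1 section gave 12 to 57 in all members, 0 to 6 against other spots, 0 to 7 against the surroundings, 245 to 353 and 110 to 272 between sides, and 5 to 12, 9 to 19 and 0 to 7 between diets beside hippocampus, cortex and olfactory tissue. The border difference between diets then ran from -6.67 to 0.833 points and that of the share of neighbours that are members from -5.94 to 1.63. With the replicate block, although sections share only a number (correlation of their deviations -0.0347 over 10340 genes), the counts were 15 in all members (9 of the 10 shared), 7 beside hippocampus (3 of the 3 shared), 16 beside cortex (13 of the 17 shared) and 3 on the olfactory side. With equal sides 12 genes were called, 5 of them among the 10. With members chosen on a random part of the UMIs, mean log2 ratios fell to 2.48 for Ndnf, 2.12 for Reln, 1.63 for Cxcl14, 1.197 for Dio2 and 1.15 for Mfge8. The depth of HF replicate 1 limits thinned values most, with 64 of 120 members left at 5000 UMIs.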
